A study of Mus musculus with 9 samples.

Results

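Reversibly arrested myoblasts (G0 MB) and differentiated myotubes (MT) of the mouse myoblast line C2C12 were compared directly on 2 of the study's 9 arrays, spotted cDNA arrays of 2 colours chosen because their titles pair these states. G0 MB had been held for 48 h in suspension in semi-solid medium rich in mitogens. MT had been kept attached for 3 days in medium poor in mitogens. State, serum and attachment thus differ together and cannot be told apart. Both states came from the same line, no gene was altered in either, and no proliferating myoblasts were on these 2 arrays. Serum-deprived C2C12 cultures also keep some cells that do not differentiate, so the MT RNA need not come from myotubes alone. The other 7 arrays compared G0 MB or MT with proliferating myoblasts (MB) or G0 MB with arrested fibroblasts, and were used here to estimate the spread of each clone.

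On replicate 1 the labels give G0 MB as Cy5 and MT as Cy3, and on replicate 2 the dyes were reversed. Each array held 15247 clones besides controls, most in 2 spots. A spot was kept where its detection flag was 1, which matched an intensity above the limit of that array in at least 1 channel for 100% of spots. This left 5952 clones on replicate 1 and 6516 on replicate 2, from 36.4% and 40.3% of the clone spots, and 5184 clones were measured on both. These clones stand for 2991 genes with a symbol. The log2 ratios of duplicate spots correlated with r = 0.877 and 0.873, and the number of arrays limits the precision of every mean below.

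Both states have left the cell cycle, but in different ways. G0 MB remain single, undifferentiated cells that can divide again, as the satellite cells of muscle do, whereas MT have fused, cannot return to the cycle and build the contractile apparatus. A direct hybridization sets these arrested states against each other without a growing reference.

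The labels and the value table of the study give opposite directions for the ratio, and which is right was not tested. With the labelled dyes the log2 ratio of G0 MB over MT was taken as Cy5 over Cy3 on replicate 1 and as its inverse on replicate 2. The titles name MT first, as the reference, and G0 MB second, as the test, and the value table of the authors, taken in that order, has the opposite sign on both arrays for 100% of spots. All signed values below follow the labelled dyes and so oppose the direction in which the study reads this comparison. The direction that the study gives for most of the genes it blotted in both states, which were not analysed here, is that of title order. Read in title order, every log2 ratio of G0 MB over MT keeps its size and turns its sign. The summed intensity of 4 contractile markers of myotubes was higher in the channel labelled G0 MB on both arrays, with 3 of the 4 on that side on both arrays and titin split. In the text, the G0 MB side and the MT side mean the channel that the labels give to that state.

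By the labelled dyes 2 clones of 5134 tested were called, which is 0.0390% of them, and both were lower in G0 MB. Calls needed a limma adjusted p under 0.04 together with a mean ratio past 1.6-fold. Before adjustment 213 clones lay above 0 and 195 below at p under 0.05. Read in title order, 13 clones were called higher and 6 lower in G0 MB, together 0.370% of those tested (0.253% higher and 0.117% lower). The sizes are the same under both readings, but 1 array of MT against MB also turns its sign, and with it the spread that the test uses. With the labelled dyes those 2 arrays of MT against MB opposed each other, with r = -0.49 across 5502 clones. By the labelled dyes the number of calls changed when single arrays were left out. More clones were called without either array of MT against MB, and none without any array of G0 MB against MB or against fibroblasts. Leaving out an array of the direct comparison leaves 1 array of it, so no count is given.

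The called clones lower in G0 MB by the labels were Fgfr1, a receptor for fibroblast growth factors, and Cdk8, the kinase of the Mediator complex that joins transcription factors to RNA polymerase II. The 2 spots of Fgfr1 read -4.01 and -4.08 on replicate 1 and -3.74 and -3.63 on replicate 2. Its mean log2 ratio was -3.86 ± 0.39 (SE), lower on 2 of 2 arrays, at a limma adjusted p of 0.0341. The G0 MB channel of Fgfr1 was under the detection limit on both arrays, at 2238 and 412 against 36846 and 5291 in the MT channel, so the ratio is a bound of at least 6.26-fold, set with the limit in place of the dim channel. In a mixed RNA a lower ratio cannot be told apart from fewer cells that express the gene, and this holds for each gene below.

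Cdk8 was bright in both channels. Its spots read -3.69 and -3.82 on replicate 1 and -3.57 and -3.58 on replicate 2, and its mean was -3.66 ± 0.38 (SE) at a limma adjusted p of 0.0341. The intensities were 21067 and 23452 on the G0 MB side against 283759 and 278872 on the MT side, with no overlap. Of the other 10 measured members of Mediator and RNA polymerase II, none was called or lay past 1.6-fold the same way on both arrays. Cyclin C, the partner of Cdk8 in that complex, read 0.76 and 0.43.

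**Figure D1:**
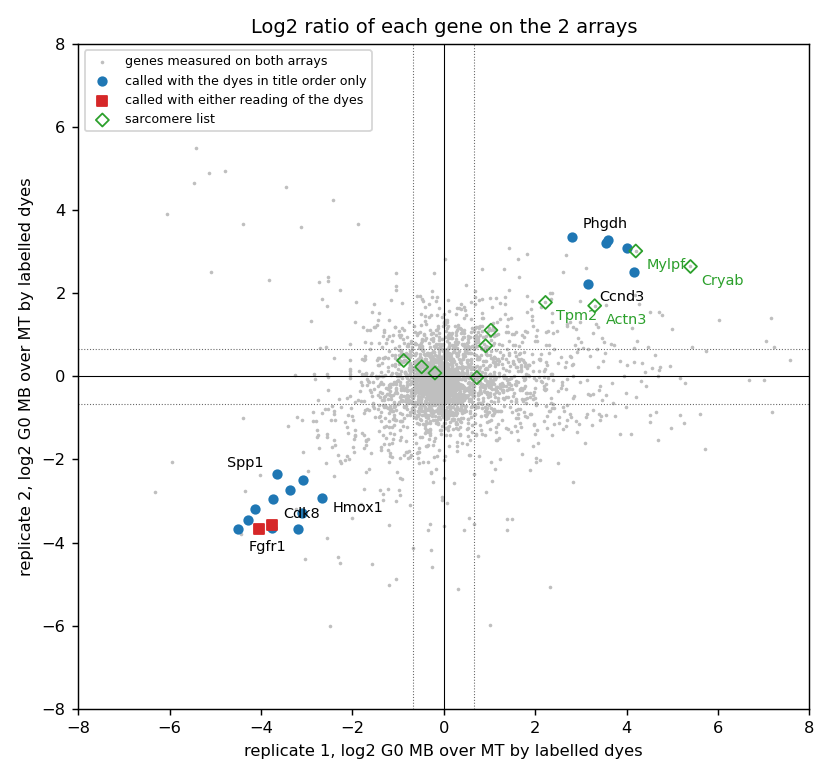
Log2 ratio of G0 MB over MT by labelled dyes on replicate 1 (x axis) and replicate 2 (y axis) for each of 2989 genes measured on both arrays, with dotted lines at 1.6-fold; 2 genes lie outside the plotted range. Called clones sit in the lower left and upper right corners, the sarcomere genes with large ratios lie at the upper right, and the cloud of all genes shows no slope.

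In title order 17 clones were called besides these 2, and each of them had its 2 arrays on the same side of 0. On the MT side by the labels, signalling and surface genes included Dab2, an endocytic adaptor that dampens growth factor and Wnt signals, at -4.14 and -3.19, and Lrp1, a large endocytic receptor, at -3.37 and -2.75. Spp1 (osteopontin, a secreted ligand of integrins) read -3.64 and -2.35, with intensities of 5501 and 9238 on the G0 MB side against 68705 and 47105 on the MT side. Ly6a (Sca-1, a surface marker of progenitor cells) read -3.10 and -3.28, and Gpr137b, a protein of the lysosomal membrane, -3.19 and -3.67. The G0 MB channel of Lrp1 and of Gpr137b was under its limit on both arrays, which bounds them at 1.85-fold and 2.51-fold or more, and that of Dab2 and Ly6a was under it on 1 array. Their title-order adjusted p in limma lay between 0.0214 for Dab2 and Ly6a and 0.0358 for Lrp1, and by the labelled dyes between 0.0498 and 0.0651.

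The other called clones of that side concern detoxification, the matrix and metabolism. Gstm1, which couples glutathione to reactive compounds, read -4.30 and -3.44, at least 7.24-fold, and Hmox1, which breaks down heme, read -2.67 and -2.92. A clone of Nid1, a link protein of the basement membrane, read -4.51 and -3.67 (at least 6.06-fold), and the second clone of Nid1 read -3.24 and -3.20 (at least 1.27-fold). A clone of Slc2a1, the main glucose carrier of growing cells, read -3.77 and -3.65, while its brighter clone read -1.98 and -1.06. A clone of Col3a1, a fibrillar collagen, read -3.09 and -2.49, and all 3 Col3a1 clones were below 0 on both arrays although the brightest had a mean of only -0.63. Smarcd2, a subunit of chromatin remodelling complexes, had 1 spot on each array and its G0 MB channel under the limit on both, so it carries a direction but no fold.

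On the G0 MB side by the labels, the title-order calls were Phgdh, Ccnd3, Oxr1, Thrap3 and 2 clones that the array annotation leaves unnamed. Phgdh, which opens the serine synthesis pathway, read 2.89 and 2.73 in its spots on replicate 1 and 3.28 and 3.41 on replicate 2. Its intensities were 61893 and 23658 on the G0 MB side against 8829 and 2328 on the MT side, and the second Phgdh clone measured on both arrays lay above 0 on both. Its mean of 3.08 ± 0.44 (SE) had a limma adjusted p of 0.0596 by the labelled dyes and 0.0214 in title order. Ccnd3, the D-type cyclin that myotubes are known to keep, read 3.17 and 2.22 with a title-order adjusted p in limma of 0.0358.

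Thrap3 and Oxr1 were above the limit in both channels on 1 array only. Oxr1, which protects against oxidative damage, read 4.01 and 3.09. The called clone of Thrap3, a factor of transcription and splicing, read 3.60 and 3.29, whereas the brighter Thrap3 clone read -0.28 and -0.06. The clones of Thrap3 thus disagree, and the gene itself has no settled ratio.

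**Figure D2:**
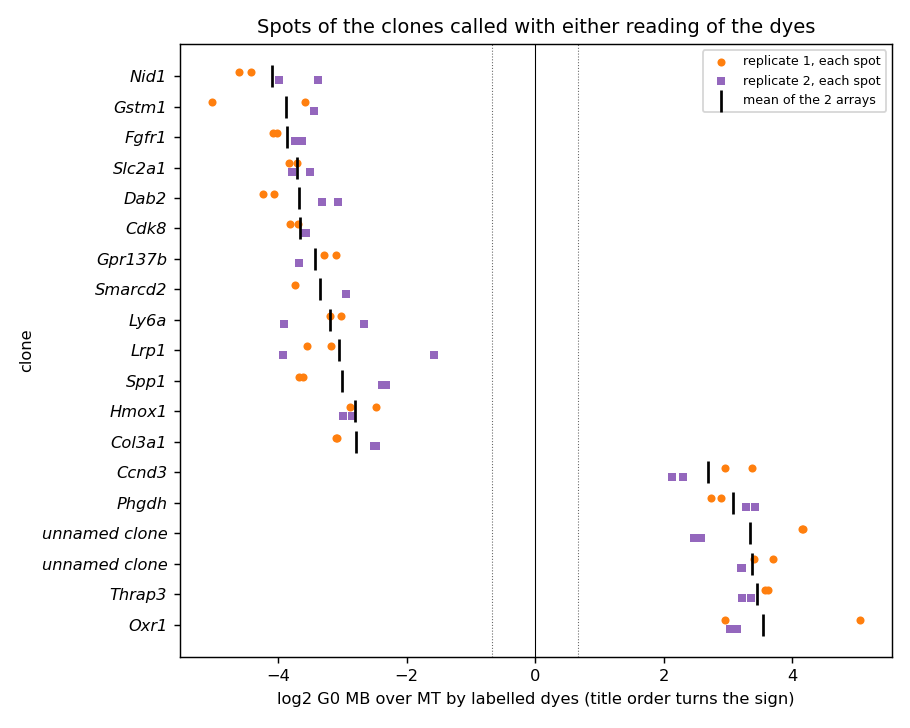
Each spot of the 19 clones called with either reading of the dyes: log2 ratio of G0 MB over MT by labelled dyes (x axis) for replicate 1 (circles) and replicate 2 (squares), with the mean of the 2 arrays as a bar. In 13 clones all spots lie below 0 and in 6 all lie above, and the 4 spots of Cdk8 span the least width among those with 4 spots.

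The contractile genes lay on the G0 MB side by the labels. Of 46 genes on a list of sarcomere components only 11 were on the array, and of the 10 measured on both arrays 6 were above 0 on both, against 20.4% of all genes, and 4 had opposite signs. Of all genes 57.0% kept 1 side on both arrays. All 6 were past 1.6-fold on both arrays, against 5.18% of all genes. The list had a median of 0.95, with 0.97 on replicate 1 and 0.92 on replicate 2, beside -0.09 over all genes (-0.04 and -0.16). None was called under either reading.

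Mylpf, the regulatory light chain of fast skeletal myosin, was the brightest of the sarcomere genes on the G0 MB side, with intensities of 578044 and 189188 against 31398 and 23368 on the MT side. Its spots read 4.24, 4.17, 2.95 and 3.08. Its mean of 3.61 had an SE of 3.21 in limma, in a fit whose spread includes the arrays of MT against MB, and the adjusted p was 0.970 by the labelled dyes and 0.458 in title order. Cryab, a small chaperone of the Z-disc, read 5.40 and 2.64 but was under the limit in the MT channel on 1 array. Actn3, the fast-fibre alpha-actinin that anchors thin filaments, read 3.30 and 1.70 with intensities of 34364 and 21106 against 3482 and 6492.

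The tropomyosins, which regulate the thin filament, were alike in direction and differed in size. Tpm2 read 2.23 and 1.78, Tpm3 read 1.03 and 1.11, and Tpm1 read 0.92 and 0.74. All 7 clones of these 3 genes lay above 0 on both arrays. Titin, the giant spring of the sarcomere, read 0.72 and -0.03 and did not keep a side.

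**Figure D3:**
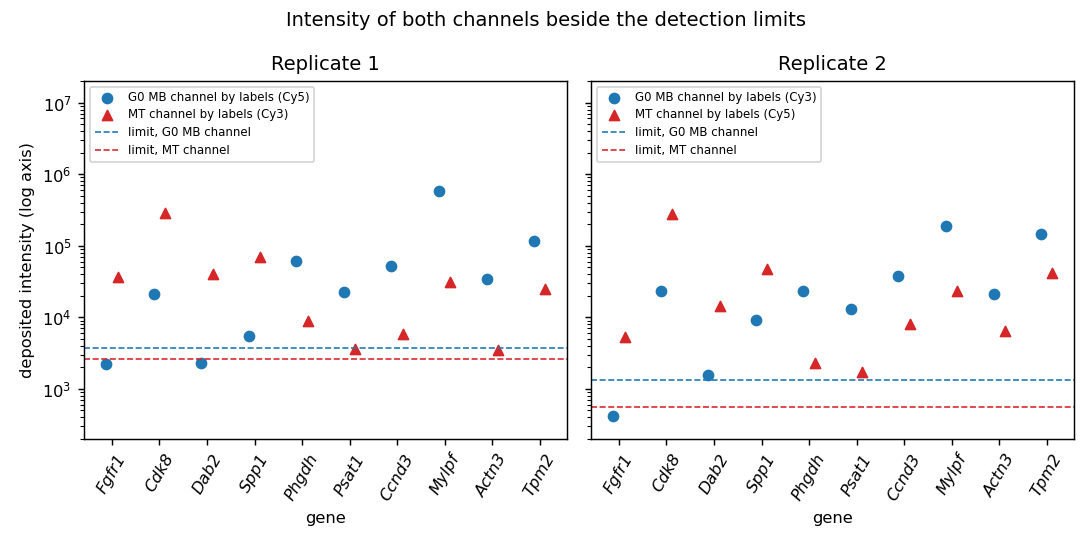
Deposited intensity (log axis) of 10 genes in the channel labelled G0 MB (circles) and in that labelled MT (triangles) on replicate 1 (left) and replicate 2 (right), with the detection limit of each channel as a dashed line. Cdk8 and Spp1 are higher in the MT channel and Mylpf, Actn3 and Tpm2 in the G0 MB channel on both arrays, and the G0 MB channel of Fgfr1 lies under its limit on both.

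The labelled states were also set against their markers. Of 22 contractile markers of myotubes, 5 were on the array and 4 were measured on both arrays (Mylpf, Tpm1, Tpm2 and Ttn). Their summed intensity was 791245 and 384756 in the channel labelled G0 MB, and 109787 and 99968 in the channel labelled MT. The labelled dyes thus put the higher sum with G0 MB on both arrays. Title order puts it with MT, the state that builds the contractile apparatus. Of 8 myoblast markers only Sdc4 was measured on both arrays, at -0.21 and -0.03, and Pax7, Myf5 and Myod1 are not among the array's named clones. Marker genes of other cell types were few: Lyz2 of macrophages read 0.47 and -0.05, Pecam1 of endothelium 0.15 and -0.44, and no adipocyte marker was on the array. Of 7 fibroblast markers 4 were on the array and 2 were measured on both, with a summed intensity of 44141.6 and 90277.1 on the G0 MB side against 162018 and 60278.9. Of these, Col1a1 read 0.84 and 2.59 and Col1a2 -2.05 and 0.13, and their part in the results was not tested.

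E-boxes are the sites that the MyoD family of muscle factors binds. The promoters of 3 sarcomere genes past 1.6-fold are shown because they hold an E-box with the letters CAGCTG, which reads the same on both strands. They come from RefSeq on GRCm38.p6 and run from 250 bases before to 20 bases after the start of the gene, with the E-box in capitals. Mylpf is at chr7:127211358-127211627 on the plus strand, with its E-box beginning at base -51 from the start. Tpm2 is at chr4:43523535-43523804 on the minus strand, with its E-box at -227, and Tpm3 at chr3:90072401-90072670 on the plus strand, with its E-box at -175. A second promoter of Tpm3, at chr3:90079271-90079570, held no such E-box and is not shown.
Mylpf: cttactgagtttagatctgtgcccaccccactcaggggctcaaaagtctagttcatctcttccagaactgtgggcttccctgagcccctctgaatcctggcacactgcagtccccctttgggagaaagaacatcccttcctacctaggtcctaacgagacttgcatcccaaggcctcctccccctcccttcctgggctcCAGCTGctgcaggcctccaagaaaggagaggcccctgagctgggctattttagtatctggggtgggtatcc
Tpm2: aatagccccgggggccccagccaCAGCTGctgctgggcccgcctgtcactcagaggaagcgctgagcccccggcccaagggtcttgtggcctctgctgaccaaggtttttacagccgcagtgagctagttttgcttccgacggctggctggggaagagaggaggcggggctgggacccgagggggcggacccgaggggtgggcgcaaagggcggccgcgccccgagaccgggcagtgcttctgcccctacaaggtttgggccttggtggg
Tpm3: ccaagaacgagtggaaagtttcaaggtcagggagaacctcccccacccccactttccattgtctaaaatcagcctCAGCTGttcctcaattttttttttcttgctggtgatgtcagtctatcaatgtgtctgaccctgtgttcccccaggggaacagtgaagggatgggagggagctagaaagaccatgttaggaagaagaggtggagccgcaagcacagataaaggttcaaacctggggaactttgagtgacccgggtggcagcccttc
Over the 250 bases before and 50 after the start, 14 of the 37 listed sarcomere genes with a promoter in the table held this E-box (37.8%), against 18.3% of 27025 genes. Most of the 37 were not measured here, and of the 7 measured on both arrays 3 held it. The CArG box, the site of serum response factor, was held by 6 of these 37 genes (16.2%) and by 1.81% of all, but by none of the 7 measured on both arrays that have a promoter in the table. A match is a string of letters and not a shown binding site.

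Genes of amino acid synthesis lay on the G0 MB side by the labels. Of 25 measured genes on a list of amino acid synthesis and ATF4 targets, 17 were above 0 on both arrays, 1 was below and 7 had opposite signs, with a median of 1.20 (1.11 and 0.96). Over all genes 20.4% were above 0 on both arrays and 36.6% below. Past 1.6-fold on both arrays were 11 above 0 and 1 below, against 5.18% and 6.29% of all genes. ATF4 is the factor that turns on these genes when amino acids run short. Only Phgdh was called, in title order.

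The serine and one-carbon enzymes of this list all kept 1 side, with 5 of 5 above 0 on both arrays. After Phgdh, Psat1, the second enzyme of serine synthesis, read 2.68 and 2.93, and Psph, the third, read 0.78 and 1.83. Mthfd2, an enzyme of the mitochondrial folate cycle, read 4.27 and 1.75 with the MT channel under the limit on both arrays, which gives at least 2.52-fold. Shmt2, which splits serine in mitochondria, read 0.15 and 0.44. The 3 enzymes of the serine branch were thus all past 1.6-fold on both arrays.

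Among other enzymes of the list, Asns, which makes asparagine, read 1.14 and 1.88, Gpt2, an alanine transaminase, 2.89 and 1.15, and Slc3a2, the heavy chain of amino acid exchangers, 1.43 and 2.08. Of 12 tRNA synthetases 6 were above 0 on both arrays and none below. Nars read 6.02 and 1.37 with a channel under its limit on 1 array, Iars 1.94 and 1.82, also under a limit on 1 array, Gars 2.02 and 0.96 and Lars 1.47 and 1.40. Atf4 itself read 2.24 and 0.35. Glutamine synthetase (Glul) was the exception on the other side, at -1.95 and -1.45.

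The composite site that ATF4 shares with C/EBP factors was searched as TTGCATCA and its complement TGATGCAA. It was held by 13 of the 51 listed genes whose promoter was given (25.5%), against 1.03% of 27025 genes, and 4 of 21 measured on both arrays did. The list holds textbook ATF4 targets, so its share of sites is no finding of these arrays. Among the members past 1.6-fold on both arrays whose promoter was given, Iars alone held the site and is shown. No promoter was given for Nars and Lars, so they were not searched. Iars is at chr13:49681880-49682149 on the plus strand of GRCm38.p6, with the site in capitals beginning 7 bases after the start.
Iars: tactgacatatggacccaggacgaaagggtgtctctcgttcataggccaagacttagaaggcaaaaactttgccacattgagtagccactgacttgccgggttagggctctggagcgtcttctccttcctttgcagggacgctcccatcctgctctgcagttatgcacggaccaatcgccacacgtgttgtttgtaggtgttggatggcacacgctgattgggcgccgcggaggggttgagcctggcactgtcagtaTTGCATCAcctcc
The promoters of Phgdh, Psat1 and Asns did not hold these letters in this window.

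Cholesterol synthesis and the respiratory chain shared that side. Fdft1, the first enzyme committed to sterols, read 2.61 and 2.52 and Srebf1, a regulator of lipid synthesis, 1.61 and 2.82, each under a limit on 1 array. Of 6 measured genes of cholesterol synthesis and uptake 4 were above 0 on both arrays, and the medians of the arrays were 1.25 and 1.32, but the median of members above the limit in both channels was 0.65. Of 48 measured subunits of the respiratory chain and ATP synthase 33 were above 0 on both arrays and 4 below. Their median was 0.70 (0.66 and 0.53). Over all genes 20.4% were above 0 on both arrays and 36.6% below.

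Past 1.6-fold on both arrays were 13 respiratory subunits above 0 and 1 below, against 5.18% and 6.29% of all genes. Examples from complex I were Ndufv1 at 2.27 and 1.09 and Ndufb9 at 1.08 and 1.28. Sdhb of complex II read 2.48 and 1.09, Cox7c of complex IV 1.79 and 1.09 and Atp5d of ATP synthase 1.17 and 1.31. Ndufa7, another complex I subunit, was on the other side at -0.86 and -0.72. The highest mean of all genes, 6.51 for Ndufs8, rested on 1 spot of replicate 1 at 11.65, where the MT channel read 6, beside 1.38 on replicate 2.

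Matrix genes lay on the MT side by the labels. Of 30 measured 18 were below 0 on both arrays, against 36.6% of all genes, 2 were above and 10 had opposite signs. Past 1.6-fold on both arrays were 13 below 0, against 6.29% of all genes, and 1 above. The median was -0.94, but the arrays differed, at -1.37 on replicate 1 and -0.65 on replicate 2.

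Col6a1 and Col6a2, chains of the microfibrillar collagen VI, read -4.03 and -2.38, and -3.04 and -4.40 (at least 5.21-fold). Fn1 (fibronectin), the adhesive glycoprotein, was bright and read -3.41 and -1.19, and Lamb1, a laminin chain, -2.38 and -1.64 (at least 2.32-fold). The metalloproteinase inhibitors Timp2 and Timp3 read -2.59 and -2.08, and -1.70 and -2.30 (at least 3.19-fold). Collagen processing enzymes were on the same side, with P4ha2 (prolyl hydroxylation) at -2.79 and -1.08 and P4hb, its partner, at -2.40 and -0.91. The fibrillar collagen I chains did not follow: Col1a1 read 0.84 and 2.59, the reverse side, and Col1a2 was split.

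The Wnt pathway, which acts through beta-catenin, lay on the MT side by the labels as well. Of 25 measured members 15 were below 0 on both arrays, 2 above and 8 split, against 36.6% below and 20.4% above over all genes. Past 1.6-fold on both were 13 below and 1 above, against 6.29% and 5.18% of all genes. The median was -0.97, with -1.08 and -1.19 on the arrays. Some of these members also stand on the other lists, such as Gas1, Fn1 and Timp3, so the lists are not separate evidence. Among members above the limit in both channels on both arrays, a setting chosen after seeing the data, the median was -0.36.

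Inside the cell, Ctnnb1 (beta-catenin itself) read -1.95 and -1.28 and Tle1, a co-repressor of its partner factors, -1.08 and -1.17. Rgs2, which quenches G protein signals, read -2.50 and -6.02, at least 5.07-fold, with all 4 spots between -2.34 and -6.15. Apc, a scaffold that marks beta-catenin for destruction, read 0.12 and -1.68, and Ctbp1, a co-repressor, was on the other side at 1.82 and 1.06. At the surface Sdc2, a heparan sulfate proteoglycan, read -2.96 and -2.27, with a limma adjusted p of 0.0651 by the labelled dyes and 0.0442 in title order, past the threshold in neither. Lrp6, a Wnt co-receptor, read 2.70 and -1.06, and Wnt4, a ligand, 0.11 and 0.55.

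All 6 measured Wnt targets of the list were past 1.6-fold below 0 on both arrays, with a median of -2.37: Spp1, Fn1, Gas1, Jun, Ecm1 and Timp3. Of these, Gas1, Jun and Timp3 enter the count and the median with raw ratios although only bounds are known for them. The bound of Jun, 1.58-fold, is under 1.6-fold. The study lists all 6 as up-regulated in G0 MB on its own arrays, with Jun among inhibitors of differentiation. Those inductions are relative to MB and not to MT. The shared side of the 6 genes is not independent evidence. Gas1, a surface protein of arrested cells, read -2.27 and -4.48 (at least 6.04-fold), and Jun, a subunit of the AP-1 factor, -1.82 and -3.06 (at least 1.58-fold). Ecm1, a matrix glycoprotein, read -2.72 and -1.71.

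Of 11 measured growth factor receptors and adaptors 7 were below 0 on both arrays and 3 above. Over all genes the shares were 36.6% and 20.4%. The median of the list was -1.31, with -0.80 on replicate 1 and -1.82 on replicate 2. Pdgfrb, the receptor of mesenchymal cells for PDGF, read -5.95 and -2.07 beside Fgfr1, and Igfbp5, a binding protein of the insulin-like growth factors, -1.34 and -2.97 at intensities between 20928 and 163793. Fgfr2, a related receptor, read 0.58 and -0.55, and Igf2r, the scavenger of Igf2, 0.04 and 0.24. Igf2, the growth factor that drives myogenic differentiation, read 2.76 and 0.49 on the G0 MB side. H19, the noncoding RNA of the same locus, was among the brightest clones and read 0.24 and 0.19, with all 4 of its clones above 0 on both arrays.

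Regulators of myogenesis were few on this array. No activator of the MyoD or MEF2 families was measured on both arrays. Of 9 measured restraints of differentiation, 5 were below 0 on both arrays and none above, against 36.6% and 20.4% of all genes. Id1, which ties up the partners of MyoD, read -2.24 and -2.08, and Il6st, the signalling chain shared by interleukin receptors of its family, -0.80 and -1.82. Stat3, which acts after it, read -0.06 and -1.29. For Il6st and Stat3 the G0 MB channel was under its limit on both arrays and no fold is given.

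Of 27 measured growth arrest genes and tumour suppressor candidates, 15 were below 0 on both arrays and 2 above. Over all genes the shares were 36.6% and 20.4%. The median of the list was -0.29 (-0.28 on replicate 1 and -0.58 on replicate 2). Foxo1, a factor of arrest and survival, read -1.74 and -1.40 and Trp53 (p53) -0.60 and -0.99. Rb1, the brake that holds myotubes out of the cycle, read -0.11 and -0.76. Btg1, which slows proliferation, read -0.93 and -0.44, and Ndrg1, a stress-induced suppressor, -4.40 and -1.0. Crebbp and Smad4, a co-activator and the shared mediator of TGF-beta signals, read -1.17 and -1.91, and -0.93 and -1.46, with the G0 MB channel under its limit on both arrays (at least 1.80-fold and 1.04-fold).

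In the TGF-beta and BMP pathway 7 of 9 measured members were below 0 on both arrays and none above. Over all genes the shares were 36.6% and 20.4%. The median of the pathway was -0.88 (-0.98 on replicate 1 and -0.56 on replicate 2). Tgfb2, a ligand that restrains myogenesis, read -0.98 and -2.73, at least 1.43-fold. Fstl1, a secreted binder of these ligands, read -2.40 and -0.84. The receptor Tgfbr2 was split at -1.80 and 0.05.

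Genes of the cell cycle gave no common side. Of 35 measured 13 were above 0 on both arrays, 9 below and 13 split, against 20.4% above and 36.6% below over all genes. Their median was 0.11, and 3 above and 2 below were past 1.6-fold on both. Cdk1, the mitotic kinase, read 0.40 and 0.91, Mcm3, a helicase subunit, 0.26 and 0.56, and Rrm2, which makes nucleotides for replication, 0.39 and -0.81. Aurkb, a mitotic kinase, changed sides between the arrays at -1.06 and 1.19. Cdk2, which drives entry into replication, read 0.86 and 1.41 beside Ccnd3.

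Lysosomal genes lay on the MT side by the labels. Of 36 measured lysosome and autophagy genes 24 were below 0 on both arrays and 3 above, against 36.6% and 20.4% of all genes. Past 1.6-fold on both were 10 below and none above, against 6.29% and 5.18% of all genes. The median was -0.48 (-0.69 and -0.43). The hydrolases and their cofactors stood out by count, with 14 of 16 below 0 on both arrays and a median of -0.82, while the membrane and proton pump group had 5 of 11 below and a median of its means of 0.16 although its array medians were -0.08 and -0.07.

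Cathepsin B (Ctsb), a lysosomal protease, read -2.42 and -2.50 in its spots on replicate 1 and -1.72 and -1.70 on replicate 2, from intensities of 36386 and 28552 on the G0 MB side against 199851 and 93507. Psap, the precursor of sphingolipid activators, read -2.78 and -1.30, and Tpp1, a peptidase, -1.99 and -1.70. Gm2a, the activator of ganglioside breakdown, read -4.35 and -2.77, with an adjusted p in limma of 0.0442 in title order, and Lamp2, a lysosomal membrane protein, -2.01 and -3.42. Bnip3, a receptor that sends mitochondria to autophagy, read -2.32 and -1.89. Proton pump subunits did not follow, with Atp6v0c at -0.08 and 0.76 and Atp6v1e1 at 1.30 and 0.01.

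Redox genes were mixed. Of 22 measured 13 were below 0 on both arrays and 4 above, against 36.6% and 20.4% of all genes. Their median was -0.30. Beside Gstm1 and Hmox1, Gsta4, which clears lipid aldehydes, read -4.44 and -3.80 (at least 6.20-fold, title-order adjusted p in limma 0.0491) and Prdx4, the peroxiredoxin of the endoplasmic reticulum, -2.32 and -4.34. The mitochondrial Prdx3 was on the other side at 1.28 and 0.75.

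Glycolytic and hypoxia genes were on the MT side by value mostly on replicate 1. Of 15 measured 10 were below 0 on both arrays and none above, against 36.6% and 20.4% of all genes. Their median was -1.57 on replicate 1 and -0.17 on replicate 2. Gpi1 and Pgam1, enzymes of glycolysis, read -2.55 and -0.79, and -2.24 and -0.75. Ldha, which makes lactate, read -1.59 and 0.03 and Eno1 -1.83 and -0.34.

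**Figure D4:**
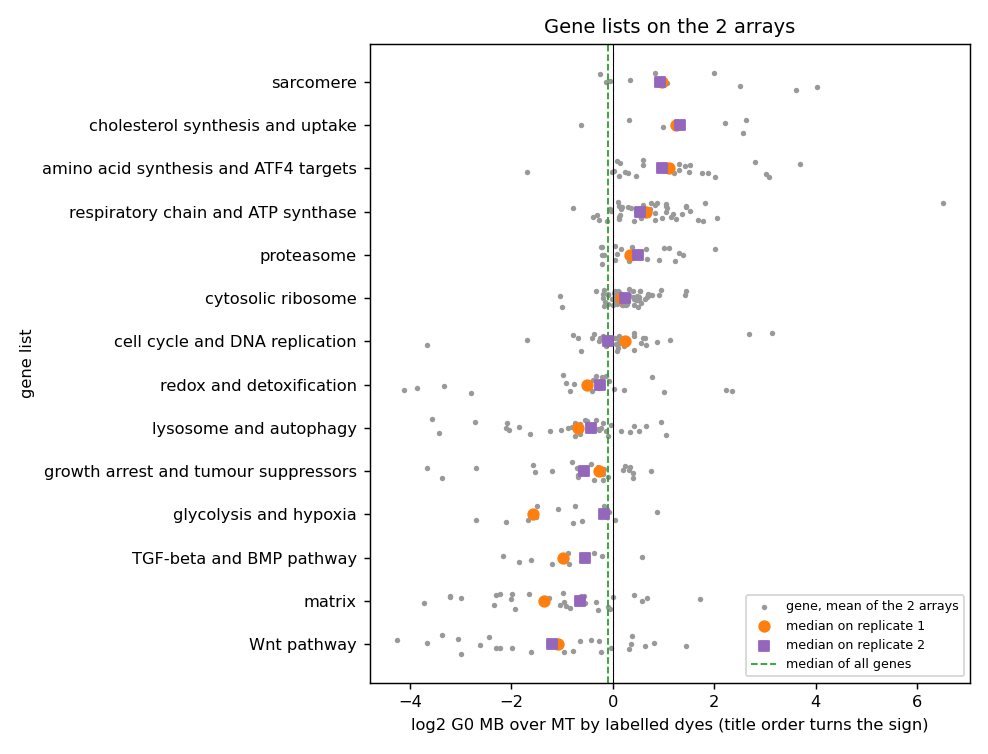
Mean log2 ratio of G0 MB over MT by labelled dyes for each gene of 14 lists (small dots), with the median of the list on replicate 1 (circle) and replicate 2 (square) and the median of all genes (dashed line). Sarcomere, cholesterol, amino acid and respiratory chain lists lie to the right on both arrays, matrix and Wnt lists to the left, and the glycolysis list is far to the left on replicate 1 alone.

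A list of 28 of the genes that the study names had 26 measured on both arrays. It is a choice and not all of them, it was made with results known, and the study picked these genes from these very samples, so its counts are not independent evidence of a direction. Other genes that the study names stand on the lists above, and some were split, such as Luc7l2 at 0.97 and -0.42, Pias1 at 1.58 and -0.55 and Pdcd4 at 0.79 and -0.12. By the labels 21 were below 0 on both arrays, against 36.6% of all genes, 1 above and 4 split. Past 1.6-fold below 0 on both were 17, against 6.29% of all genes, and the median was -1.81. Those of the list called were Fgfr1 by the labels and Fgfr1, Dab2, Gpr137b, Lrp1 and Spp1 in title order. Cfl1, an actin-severing protein, read -0.46 and -0.15, Tsc22d1, a TGF-beta target, -0.19 and -0.56, and Map1lc3b, the autophagosome marker LC3, -0.74 and 0.14.

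The 3 arrays that set G0 MB against MB measured these genes as well, and there labels and value table agree in sign. These arrays are separate hybridizations from the direct ones but share with them the G0 MB state and the spread in the fit, so their values are only set side by side. In log2, G0 MB over MB was 3.17 for Fgfr1, 2.40 for Cdk8, 2.98 for Spp1 and 2.48 for Dab2, whereas the direct G0 MB over MT by the labels was -3.86, -3.66, -3.00 and -3.67. For Phgdh it was -4.02 beside 3.08, for Ctsb 2.71 beside -2.08, and for Igfbp5 4.41 beside -2.15. Lrp1 and the called clone of Thrap3 read 0.03 and 0.08 there, beside -3.06 and 3.45 in the direct comparison. Limma adjusted p for G0 MB over MB was 0.0168 for Fgfr1 and Spp1, 0.0115 for Phgdh, 0.0314 for Cdk8 and 0.0458 for Dab2. These come from a fit whose prior for the spread was estimated over every clone, unlike the direct values above. With that prior the limma adjusted p of Fgfr1 and Cdk8 in the direct comparison was 0.0502, past the threshold in neither. The arrays of MT over MB are not used in this way, since they opposed each other.

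Across all clones the arrays agreed in brightness and hardly in ratio. The mean log2 intensity of the 5184 clones correlated with r = 0.902 between the arrays, while their log2 ratios gave r = 0.020 and a Spearman rho of 0.097. On the same side of 0 were 2877 clones, which is 55.5%. Past 1.6-fold on both arrays were 272 clones above 0, 294 below and 422 on opposite sides, and among the last 266 were higher in G0 MB on replicate 1 and lower on replicate 2. These correlations are across clones, which share the array and are not independent replicates.

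Agreement was weakest among the dimmest clones. In 4 groups of 1296 clones ordered by brightness, 238 of the dimmest were past 1.6-fold the same way and 250 opposite ways, and in the third group 101 and 34. In the brightest group 72 were past it the same way and 39 opposite ways, with r = 0.280 against -0.109 in the dimmest. Among the 4011 clones with both channels above the limit on both arrays r was 0.222. Of the 5184 clones, 911 had a channel under its limit on 1 array, 243 had the G0 MB channel under it on both and 3 the MT channel. The limits themselves were unequal, at 3743 and 1331 in the G0 MB channel and 2627 and 559 in the MT channel.

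Different clones of 1 gene are a further gauge, since each is a separate cDNA. For the 2 brightest clones of 539 genes, the ratios correlated with r = 0.356 within replicate 1 and 0.353 within replicate 2, while between the arrays the brightest clone of these genes gave r = 0.220 (rho 0.103) and the second clone r = 0.050 (rho 0.179). Of 121 genes with 3 or more clones measured on both arrays, 18 had every clone above 0 on both arrays and 10 every clone below. Those above included Jpt1 and Mdh1, an enzyme of the malate shuttle, with means over clones of 2.21 and 2.10, Tubb4b at 1.53, Atp5b at 1.22 and Tpm3 at 1.01. Those below included Col3a1 at -1.95 and the glycolytic genes Eno1 at -1.07 and Pkm at -0.65.

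**Figure D5:**
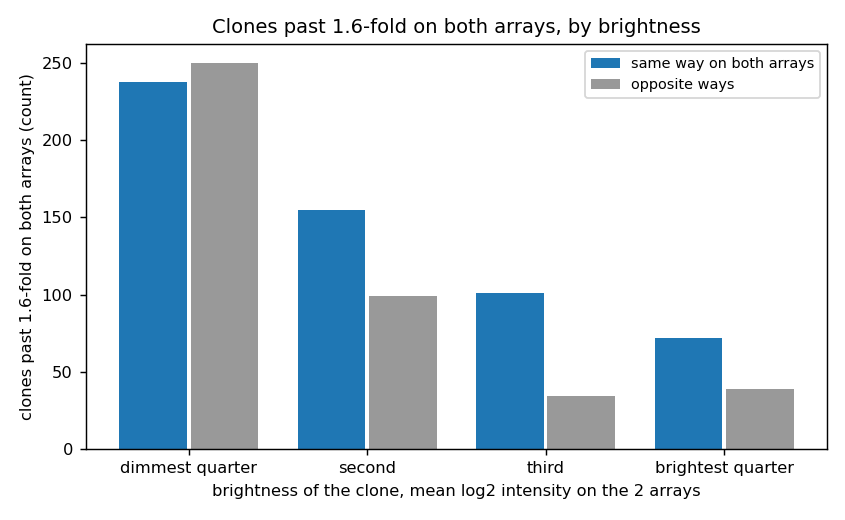
Number of clones (y axis) past 1.6-fold on both arrays, split by whether the 2 arrays point the same way or opposite ways, in 4 groups of 1296 clones by brightness (x axis). In the dimmest group 238 point the same way and 250 opposite ways, and in each brighter group more point the same way.

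Apart from the genes above, the extremes by size were mostly dim on 1 array. The lowest means were -4.56 for Arsa, a lysosomal sulfatase with 1 spot on each array (at least 2.52-fold), and -4.26 for Rgs2. Plin2, which coats lipid droplets, read -2.55 and -3.89, at least 3.12-fold. The highest means after Ndufs8, Cryab aside, were 4.28 for Mrps23 and 3.96 for Mrps10, proteins of the mitochondrial ribosome, 3.97 for Jup, a junction protein, and 3.69 for Nars, a tRNA synthetase. In each of these 4 the MT channel of replicate 1 was between 53 and 99, far under the limit of 2627, and replicate 2 read from 0.71 to 1.41. Their sizes rest on replicate 1 and only their side is shared. Scamp2, Smc2 and Alg10b completed the 10 highest, with means of 3.13, 3.13 and 3.07.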

How the data were processed

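Each of the 9 arrays carried cDNA clones in duplicate spots. The Cy3 and Cy5 intensities had been quantified in ArrayVision, background-subtracted and LOWESS-normalized by the authors before they were deposited, with filtered spots set to 0. The log2 ratios of the value table were also deposited by the authors and served as an alternative, and in it the columns of the 2 arrays of MT against MB hold each other's values. Detection flags, deposited by the authors beside the intensities as another column, gave the filter. Tool versions are not given in the sources used here.

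Log2 ratios were recomputed from the intensities, turned by the labelled dyes, and averaged over duplicate spots. All 9 arrays entered a linear model with a coefficient for each comparison, in limma 3.58.1 under R 4.3.3 (prior degrees of freedom 3.52). A clone was tested with values on both arrays and at least 2 residual degrees of freedom, and called at a Benjamini-Hochberg adjusted p under 0.04 and 1.6-fold (log2 0.67). Separate cultures are not marked in the labels, so p-values measure the spread between arrays, which may be technical. The code of the fit was run on simulated noise with known changes added, equal on both direct arrays. Such data lack the disagreement between the real arrays, so the run does not bear on it. Alternatives changed the direction, scaling, filter, design and arrays used.

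Where clones shared a gene, the brightest over all arrays stands for it. The text names genes called under either reading, the 10 highest and 10 lowest others past 1.6-fold on both arrays, a list of genes the study names, and the called, past 1.6-fold or brightest members of each list, with a few others that were chosen after their values were seen. Members and lists were chosen with earlier results of these data known. Of 11140 clones with a symbol in the files, 3694 had it updated through RefSeq synonyms and 472 kept an unmatched one. A bound puts the limit of the dim channel in place of its intensity. Tables were made in Python 3.11.15 with pandas 2.3.3.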

Additional observations from a re-analysis of the deposited data

How the results depend on the processing

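The direction of every value rests on the labels. Read in title order, the medians were -0.95 for the sarcomere, -1.20 for amino acid synthesis, -0.70 for the respiratory chain, -1.60 for cholesterol synthesis, 0.94 for the matrix, 0.48 for the lysosome, 0.97 for the Wnt pathway, 0.75 for glycolysis and 0.30 for redox genes. In title order and in the value table of the authors the log2 ratios were 4.09 for Nid1, 3.87 for Gstm1, 3.86 for Fgfr1, 3.71 for Slc2a1, 3.67 for Dab2, 3.66 for Cdk8, 3.43 for Gpr137b, 3.34 for Smarcd2, 3.19 for Ly6a, 3.06 for Lrp1, 3.00 for Spp1, 2.79 for Hmox1 and for Col3a1, -2.69 for Ccnd3, -3.08 for Phgdh, -3.45 for Thrap3 and -3.55 for Oxr1.

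The number of calls did not hold. The 0 higher and 2 lower clones became 13 and 6 in title order and in the value table, 8 and 8 of 3973 with both channels above the limit, and 0 lower with scaled arrays, median centring, no filter on dim spots, a fit of the 2 arrays alone or a dye term. At an adjusted p under 0.05 with no fold limit 4 were lower, and a significance analysis of microarrays over single spots, which takes spots as replicates, gave 410 higher and 378 lower of 4609. Leaving out each array in turn gave from 0 to 44 higher and from 0 to 12 lower. With the replicate number as a block 0 were called lower, and the numbers only name the arrays. Settings chosen after seeing the data gave 0 lower with a prior over every clone and 3 lower with a prior over the clones of this comparison. In title order they gave 6 and 1 with the first of these priors, 18 and 8 with the second of them, 15 and 7 with scaled arrays, 0 and 0 with the block, 19 and 1 without replicate 1 and 37 and 119 without replicate 2. The adjusted p of Fgfr1 and Cdk8 reached 0.760 in the fit of the 2 arrays alone. The cause was not tested.

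The correlation between the arrays was -0.16 with no filter on dim spots, 0.080 after repeated loess and 0.222 with both channels above the limit. Median centring gave medians of 1.07 for the sarcomere, 1.31 for amino acid synthesis, 0.81 for the respiratory chain, 1.72 for cholesterol synthesis and -0.85 for the Wnt pathway. The sarcomere median was 1.00 after repeated loess and 1.04 as a mean over clones. With both channels above the limit, medians were 0.83, 0.82 and 0.65 for the sarcomere, amino acid and cholesterol lists and -0.36 for the Wnt pathway. On 1 array alone they ran from 0.92 to 0.97 for the sarcomere, 0.96 to 1.11 for amino acid synthesis, 0.53 to 0.66 for the respiratory chain, 1.25 to 1.32 for cholesterol synthesis, -1.37 to -0.65 for the matrix, -0.69 to -0.43 for the lysosome, -1.19 to -1.08 for the Wnt pathway, -1.57 to -0.17 for glycolysis and -0.51 to -0.26 for redox genes. Why the dim clones agreed less between the arrays was not tested.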

Other observations

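Housekeeping machines had small medians. By the labels, 33 of 59 measured proteins of the cytosolic ribosome were above 0 on both arrays, 5 below and 21 on opposite sides. Over all genes 20.4% were above and 36.6% below. The median of the ribosome was 0.20, and in title order it was -0.20. Rplp2, a stalk protein, read 0.93 and 0.98 and Rps3 0.69 and 0.70, while Rpl10 read -1.19 and -0.88. Of 22 measured proteasome subunits 14 were above 0 on both arrays and 3 below, with a median of 0.35. Psmc3, an ATPase of the proteasome cap, read 1.64 and 2.38 and Psmb3, of its core, 1.40 and 1.38.

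Of 8 measured tubulins and their folding cofactors 6 were above 0 on both arrays and none below, with Tuba1a at 0.76 and 0.86 and Tubb4b at 1.07 and 1.66, and the MT channel of Tubb2b was under its limit on 1 array. Actin genes were mixed, with 8 of 35 above and 11 below, close to the 20.4% and 36.6% over all genes. Anxa1, a membrane-binding protein, read -2.08 and -1.99 and Actg1, cytoplasmic actin, -1.55 and -0.71, whereas Tmsb10, which sequesters actin, read 0.84 and 1.87. Among chaperones Hspb1, a small heat shock protein of muscle, read 1.83 and 1.95, and Cct3 and Cct4, subunits of the chaperonin that folds actin and tubulin, read 1.15 and 1.00, and 1.10 and 1.02. Ckb, brain creatine kinase, read 0.68 and 1.73 and Atp2a2, a calcium pump of the reticulum, -0.87 and -1.90. None of these genes was called.

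The 40 genes with the largest opposite ratios all had a channel under its limit on 1 array or more. Ddx46, an RNA helicase, read -5.43 and 5.50, Rps6ka2, a kinase, -5.14 and 4.89, and Nme1, a nucleotide kinase, -4.80 and 4.94.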
